A study of Danio rerio with 8 samples.

Results

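Liver RNA of zebrafish (Danio rerio) from both temperature extremes of the experiment, 34 °C and 18 °C on day 28, was compared with liver RNA from 26 °C on day 28. For each gene the 26 °C level was subtracted from the mean of the 34 °C and 18 °C levels. A gene that took the same side at both extremes had a value away from 0, whereas a gene that followed temperature evenly had a value near 0. The comparison used 6 of the 7 RNA samples, 2 at 34 °C, 2 at 18 °C and 2 at 26 °C, each labelled as day 28. The seventh sample, from 26 °C on day 4, stayed outside the comparison and was set beside it, although its 2 arrays entered the fit.

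The series was made to choose probes for a custom array by their response to temperature. Total RNA was extracted with Trizol and hybridised on 8 Agilent arrays, each of which binds a red (Cy5) and a green (Cy3) sample to the same probes. The arrays formed a loop in which neighbours shared a sample, with a further array across it. That array joined the second 26 °C replicate of day 28 with the first 34 °C replicate. In all, 5 of the arrays joined an extreme with 26 °C on day 28. Replicates are called biological in the labels, which do not give the number of fish, their age, strain or sex, or the temperature they came from.

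Zebrafish are ectotherms, so the temperature of the water sets that of the liver and the rate of its chemistry. Heat unfolds proteins, and chaperones refold them or pass them to the proteasome, the protease that breaks down ubiquitin-tagged proteins. Cold slows translation and stiffens membranes, and fish are known to answer it by changing the enzymes that build membrane lipids. Genes that answer either departure from the usual temperature are therefore of another kind from genes that are merely high in the warm or in the cold.

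Every value below is a log2 ratio or a difference of log2 levels, where a sample's level is relative to the mean of all 7 samples. The dyes are known from the labels, but the sources used here do not say which dye stands on top of the ratio. Ratios were read as Cy5 over Cy3, the form that limma, the software named by the submitters, uses and the order in which the array titles name the samples. Under this reading cirbpa, whose mammalian counterpart is a cold-inducible RNA-binding protein, had a 34 °C minus 18 °C value of 0.995, and serpinh1b, a collagen chaperone known to be induced by heat, had -0.66. Neither value passed the test (limma adjusted p = 0.268 and 0.0646), and both have the sign opposite to that textbook behaviour. The fatty acid desaturase gene fads2, of an enzyme family known to be induced by cold in fish, had 3.40 and the elongase gene elovl6 2.41, and both passed (limma adjusted p = 0.0386 and 0.0272). The sign of fads2 is again opposite to that known for its family. Both fads2 and elovl6 came from a pathway list described below, as members with the smallest p in these data. The genes chosen for responding to temperature, cirbpa and serpinh1b among them, were chosen with earlier results of these data known. The direction was thus not checked on independently chosen genes. Of the remaining genes chosen for responding to temperature, hmgb1a had 2.99, hspa8 1.03, cirbpb 0.634 and scd 0.397. The gene hsp90aa1.1 had -0.179 and hspa5 -1.07, and none of these values passed. The direction is thus not settled: positive and negative below give the sign under this reading, and every sign turns if Cy3 stands on top. Sizes, p-values, counts of non-overlapping genes and the contrast between one gene group and another are the same under either reading.

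The array medians lay within 0.00385 of 0 and the array SDs between 0.315 and 0.537. The table held 35434 features after probes of a gene were averaged, 15548 of them with a gene symbol. Taken over features, which are no independent replicates, the correlation between replicate levels was 0.462 at 34 °C and 0.404 at 18 °C, and it was -0.0269 at 26 °C. The SD of the difference between replicates was 0.278 at 34 °C, 0.273 at 18 °C and 0.226 at 26 °C. The precision is limited by the number of arrays. Ratios carry no absolute level, so the presence of liver markers in a sample could not be checked, only how they differed between samples.

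No feature separated both extremes from 26 °C after adjustment. Of 35434 features, 0 passed an adjusted p of 0.05 (0%; limma on the sample levels, Benjamini-Hochberg), and the lowest adjusted p was 0.72. At an unadjusted p under 0.05 there were 1046 features (2.95%), 752 negative (2.12%) and 294 positive (0.83%). Other forms of the test called 2 features (limma on the 8 arrays directly) and 7 features (a variance prior that follows the size of the ratios). The form on the arrays takes arrays that share a sample as independent. In the main test the 7 features had an unadjusted limma p between 0.0156 and 0.723. A change of at least 2-fold was seen in 91 features (0.257%), 66 positive and 25 negative.

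The difference between the extremes was larger than their common departure from 26 °C. The SD over features was 0.150 for the mean of both extremes minus 26 °C, against 0.421 for 34 °C minus 18 °C, with median standard errors of 0.0538 and 0.0622. For 34 °C minus 18 °C, 348 features passed (0.982%), 172 positive (0.485%) and 176 negative (0.497%), although this count fell to 0 when arrays were scaled to a common spread and to between 0 and 246 when 1 sample or 1 array was left out. The 34 °C step from 26 °C had 0 features passing (0%), 3114 at an unadjusted p under 0.05 (8.79%). The 18 °C step had 1 (0.00282%), itgb1b.2, an integrin beta 1 gene, at -1.39 (limma adjusted p = 0.0453). Its values were -0.15 for the mean of both extremes and 1.09 for the 34 °C step, and its 18 °C call was lost when arrays were scaled or any 1 sample or array was left out. Both steps use the same 26 °C samples, so their values are given side by side and no overlap or correlation between them is given as a result.

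**Figure D1:**
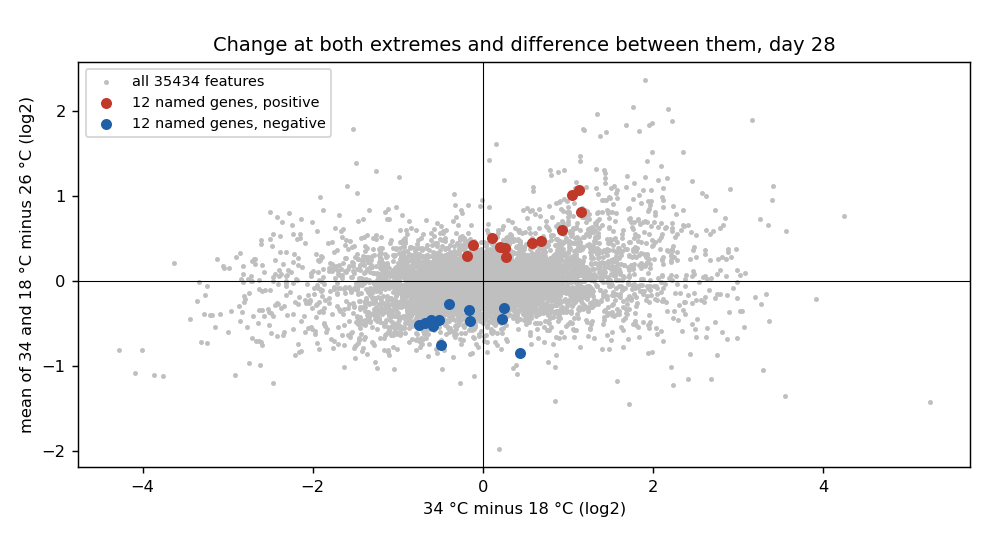
The vertical axis gives the mean of 34 °C and 18 °C minus 26 °C and the horizontal axis 34 °C minus 18 °C, both on the log2 scale, for all 35434 features (grey) and for the 12 positive (red) and 12 negative (blue) genes with the smallest p among those whose groups did not overlap. The cloud is wider (SD 0.421) than it is tall (SD 0.150).

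In 1692 features (4.78%) all 4 levels at the extremes lay on one side of both 26 °C levels, 689 above (1.94%) and 1003 below (2.83%). The genes described next are the 12 in each direction with the smallest p among such features with a gene symbol. That choice used these very values, so they are a description of the clearest cases and none passed the test. Within the 24, the 34 °C step was the larger in 19 and the 18 °C step in 5, and the smaller step was at the median 33% of the larger. Over all 1692 features without overlap the numbers were 1024 and 668, with a median of 60%, so the 24 were more one-sided than the features they came from. In 7 of the 24, but in 11 of the 1692, the extremes also differed from each other in the 34 °C minus 18 °C test, which 0.982% of all features passed. The 24 were chosen by small p-values from the same spread that this test uses.

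Among the positive genes with similar steps at both extremes was slc12a7b, for a potassium-chloride cotransporter. Its levels were 0.05 and 0.06 at 34 °C and 0.14 and 0.19 at 18 °C, against -0.30 and -0.31 at 26 °C. All 4 extreme samples lay above both 26 °C samples, and the day 4 sample from 26 °C, at 0.17, lay with the extremes. The mean of both extremes minus 26 °C was 0.415 ± 0.035 (limma SE), made of a 34 °C step of 0.36 and an 18 °C step of 0.47 (limma adjusted p = 0.72). The extremes did not differ detectably from each other, at -0.11 for 34 °C minus 18 °C (limma adjusted p = 0.327).

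The endoplasmic reticulum chaperone gene calr (calreticulin) was another. It had levels of 0.31 and 0.17 at 34 °C and 0.15 and 0.10 at 18 °C, against -0.40 and -0.24 at 26 °C. The groups did not overlap, and the difference was 0.50 ± 0.069, although 1 of its 4 probes had the opposite sign. The mitochondrial ribosome recycling factor gene mrrf had levels of 0.21 and 0.20 at 34 °C and 0.02 and -0.02 at 18 °C, against -0.29 and -0.29 at 26 °C. Its difference was 0.39 ± 0.033, and the 18 °C samples stood between the other groups. It was 0.0554 without the second-replicate array of 34 °C and 26 °C. Of the cytokine signalling inhibitor socs3b, the 34 °C step was 0.51 and the 18 °C step 0.25. The ribosome assembly gene sdad1 had the larger step at 18 °C, 0.38 against 0.19 at 34 °C, with 1 of 3 probes opposite in sign. Its difference of 0.285 was 0.113 without the second-replicate array of 34 °C and 26 °C. With the median of its probes in place of their mean it was 0.0502.

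Other positive genes had by far the larger step at 34 °C. The large ribosomal subunit gene rpl27 had levels of 0.66 and 0.91 at 34 °C and -0.39 and -0.34 at 18 °C, against -0.59 and -0.61 at 26 °C. The 18 °C samples lay only just above 26 °C, so the difference of 0.81 ± 0.079 (limma adjusted p = 0.740) was carried by a 34 °C step of 1.39. The 34 °C step was likewise the larger for rpl3 (0.73, against 0.16 at 18 °C), whose difference was 0.00488 without the second-replicate array of 34 °C and 26 °C, and for btf3, a subunit of the nascent-chain-associated complex (1.06, against 0.13 at 18 °C, 1 of 4 probes opposite). For cct4, a subunit of the cytosolic chaperonin, the steps were 0.42 at 34 °C and 0.14 at 18 °C.

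The ribosomal protein gene rpl19 had the second largest positive difference of the 12, 1.01 ± 0.119, with steps of 1.54 at 34 °C and 0.49 at 18 °C. It depended strongly on the set of arrays. The value was -0.52 without the second-replicate array of 34 °C and 26 °C. Without the first-replicate array of 34 °C and 18 °C it was 1.92. The largest difference was that of ftcd, an enzyme of histidine and folate breakdown in liver. Its levels were 1.14 and 0.84 at 34 °C and 0.06 and -0.34 at 18 °C, against -0.63 and -0.66 at 26 °C. The difference was 1.07 ± 0.148, with 1 of the 18 °C samples much nearer to 26 °C than the other. The guanine exchange factor gene dock8 completed the 12 with 0.47 ± 0.040, steps of 0.81 at 34 °C and 0.13 at 18 °C, and 1 of its 2 probes opposite in sign. That difference was 0.201 without the first-replicate array of 34 °C and 18 °C.

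On the negative side, zpr1, a zinc finger protein gene, had the smallest p of all named genes. Its levels were -0.40 and -0.44 at 34 °C and 0.09 and 0.11 at 18 °C, against 0.32 and 0.29 at 26 °C. The 4 extreme samples were all below 26 °C, but the 18 °C samples stood nearer to 26 °C than to 34 °C. The difference was -0.465 ± 0.035 (limma adjusted p = 0.72), and 34 °C minus 18 °C was itself -0.52 (limma adjusted p = 0.0355).

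A negative gene with more similar steps was atp6v0a1a, for a membrane subunit of the proton pump that acidifies lysosomes. Its levels were -0.24 and -0.21 at 34 °C and -0.06 and -0.10 at 18 °C, against 0.38 and 0.26 at 26 °C. The groups did not overlap, with a difference of -0.47 ± 0.047 (limma adjusted p = 0.744) and steps of -0.54 at 34 °C and -0.40 at 18 °C. Nearly all of it was lost without the second-replicate array of 34 °C and 26 °C, which left -0.0355. The small heat shock protein gene hspb1 had levels of -0.13 and -0.20 at 34 °C and -0.06 and 0.05 at 18 °C, against 0.27 and 0.23 at 26 °C. Its difference was -0.34 ± 0.050, with steps of -0.42 at 34 °C and -0.26 at 18 °C, and it was -0.204 without the second-replicate array of 34 °C and 26 °C.

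The gene higd1a, for a hypoxia-inducible protein of the inner mitochondrial membrane, had the largest negative difference of the 12, -0.85 ± 0.107, and the larger step was at 18 °C. Its levels were -0.13 and -0.23 at 34 °C and -0.54 and -0.70 at 18 °C, against 0.30 and 0.60 at 26 °C. The day 4 sample from 26 °C had the highest level of all, 0.695, and lay with the 26 °C samples of day 28. The gene gcsha, for the lipoyl carrier protein of glycine cleavage, had levels of -0.47 and -0.55 at 34 °C and -0.02 and -0.02 at 18 °C, against 0.35 and 0.63 at 26 °C. Its difference was -0.76 ± 0.088, and the 18 °C replicates lay together midway between the other groups. Leaving out the second-replicate array of 34 °C and 26 °C gave -0.339 for higd1a and -0.238 for gcsha. The mitochondrial ribosome GTPase gene mtg1 had -0.50 ± 0.053, almost all of it from a 34 °C step of -0.84.

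The remaining negative genes had differences between -0.27 and -0.53. The selenoprotein gene selenot2 had the larger step at 18 °C (-0.44, against -0.20 at 34 °C), as had rpia, a pentose phosphate isomerase gene (-0.56, against -0.34 at 34 °C). In prxl2b, a peroxiredoxin-like gene, in ccdc59, in the methyltransferase gene mettl9 and in the prolyl isomerase gene pin4 the 34 °C step was the larger, between -0.47 and -0.89. Without the second-replicate array of 34 °C and 26 °C the values were 0.45 for mettl9, 0.0989 for rpia, -0.0902 for prxl2b and -0.131 for selenot2. Without the first-replicate array of 34 °C and 18 °C they were 0.0305 for pin4 and -0.223 for ccdc59. In 9 of the 24 named genes no sample or array left out moved the difference by more than 1.5 times, namely slc12a7b, calr, socs3b, cct4, rpl27, btf3, ftcd, zpr1 and mtg1.

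**Figure D2:**
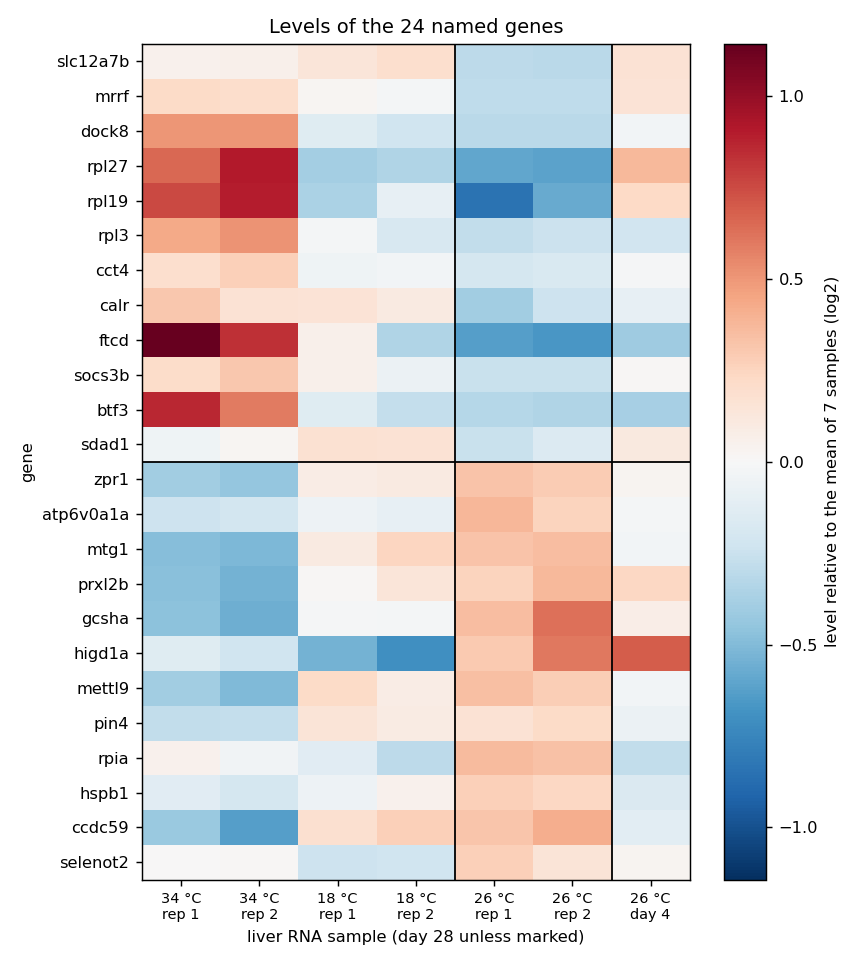
Each row is one of the 24 named genes and each column a liver RNA sample. Colour gives the log2 level relative to the mean of 7 samples, red positive and blue negative. In each row the 4 columns of the extremes lie on one side of both 26 °C columns of day 28, and in 19 of the 24 rows 34 °C stands farther from 26 °C than 18 °C does.

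The genes were then taken by pathway, in 29 lists. These were drawn from general knowledge but chosen with earlier results of these data known. None of the lists had a member that passed. The list medians lay between -0.249 and 0.474, 17 negative and 12 positive, and all features together were near balance (49% positive and 51% negative, median -0.00129). In bulk RNA, fewer cells of a type and less RNA per cell cannot be told apart, which applies to every list below.

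**Figure D3:**
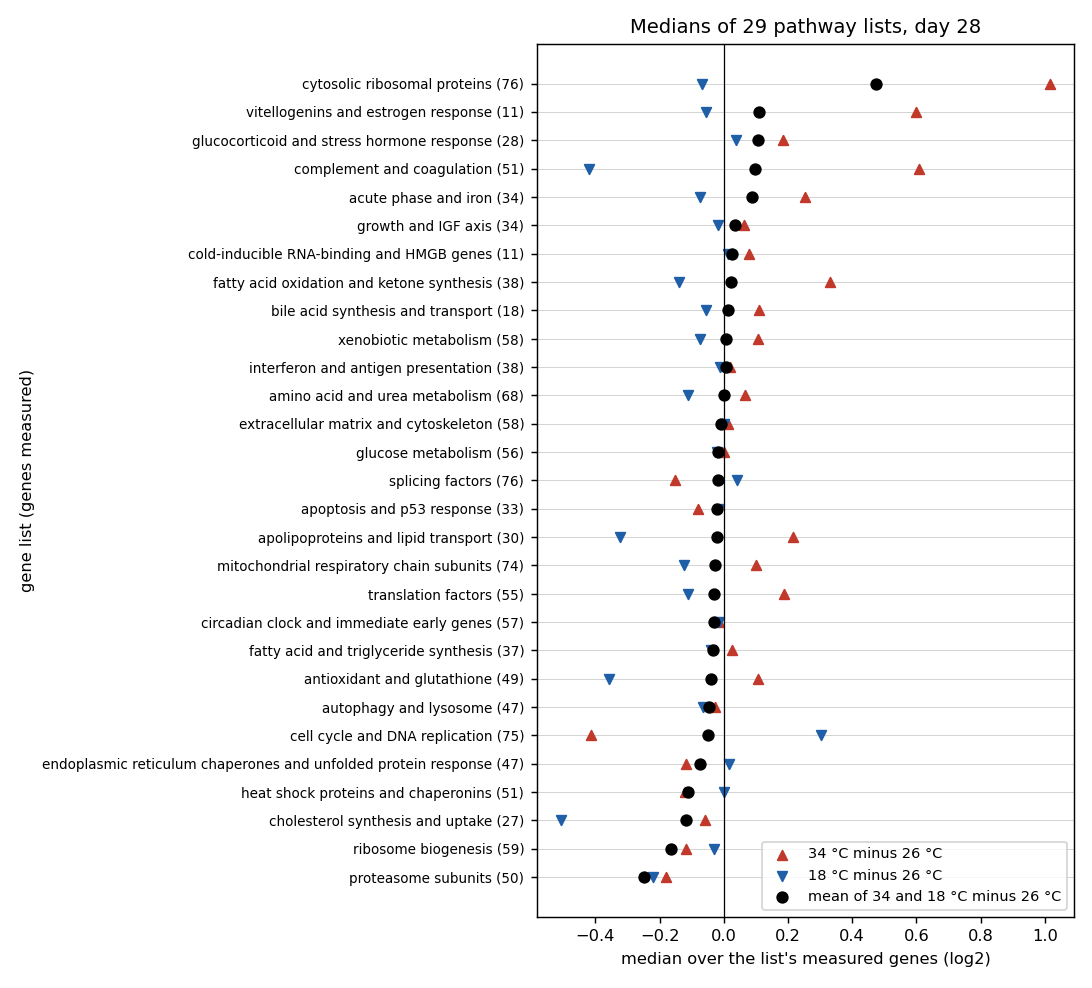
For each pathway list (number of measured genes in brackets) the horizontal axis gives the median log2 difference of its genes, for 34 °C minus 26 °C (red triangles), 18 °C minus 26 °C (blue inverted triangles) and the mean of both extremes minus 26 °C (black points). The proteasome list, at the bottom, has all 3 marks together between -0.25 and -0.18, while the ribosomal protein list, at the top, has them far apart. All 3 marks of a list subtract the same 26 °C samples.

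Proteasome genes had the lowest median of the 29 lists, with similar values at both extremes. Of 50 measured genes, 43 were negative and 7 positive, with a median of -0.249. In 12 genes all 4 extreme samples lay below both 26 °C samples and in 0 above, where over all features 2.83% lay below and 1.94% above without overlap. At an unadjusted p under 0.05 there were 11 negative genes and 0 positive, where over all features 2.12% were negative and 0.83% positive. The median was -0.18 for the 34 °C step and -0.22 for the 18 °C step, and 0.001 for 34 °C minus 18 °C. Both steps subtract the same 26 °C samples, so their likeness alone is no result. The 34 °C minus 18 °C value does not subtract them. It was, however, near the median over all features, 0.000857, so it does not set the list apart. The list's median level was -0.15 and -0.01 in the 34 °C samples and -0.02 and -0.12 in the 18 °C samples, against 0.18 and 0.07 at 26 °C. All 4 extreme samples lay below both 26 °C samples, though the gap was smaller than the spread between replicates.

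Within the list the differences spanned -1.20 to 0.085. The largest was that of psma3, an alpha-ring subunit of the catalytic core. Its levels were -0.02 and -0.80 at 34 °C and -0.12 and -0.18 at 18 °C, against 0.87 and 0.96 at 26 °C. The groups were far apart, but the 34 °C replicates differed widely, and the day 4 sample from 26 °C, at -0.70, lay with the extremes. The difference was -1.20 ± 0.226. The gene psmc1b, for an ATPase of the regulatory cap, had levels of -0.21 and -0.31 at 34 °C and -0.06 and -0.49 at 18 °C, against 0.47 and 0.41 at 26 °C. All extreme samples again lay below 26 °C, and the steps were -0.70 at 34 °C and -0.72 at 18 °C.

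The steps of psma2a, another core subunit gene, were -0.43 at 34 °C and -0.41 at 18 °C, with a mean of -0.42 that was -0.266 without the second 26 °C replicate. For psmd7, a lid subunit gene, the steps were -0.45 at 34 °C and -0.29 at 18 °C. None of these genes passed (limma adjusted p = 0.9995 each). The list kept a negative median in all alternatives run, between -0.414 and -0.143, the smallest without the first 26 °C replicate. The number of negative genes among the 50 was between 35 and 47 under the alternatives that kept them all. In 4 genes the probes disagreed in sign.

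**Figure D4:**
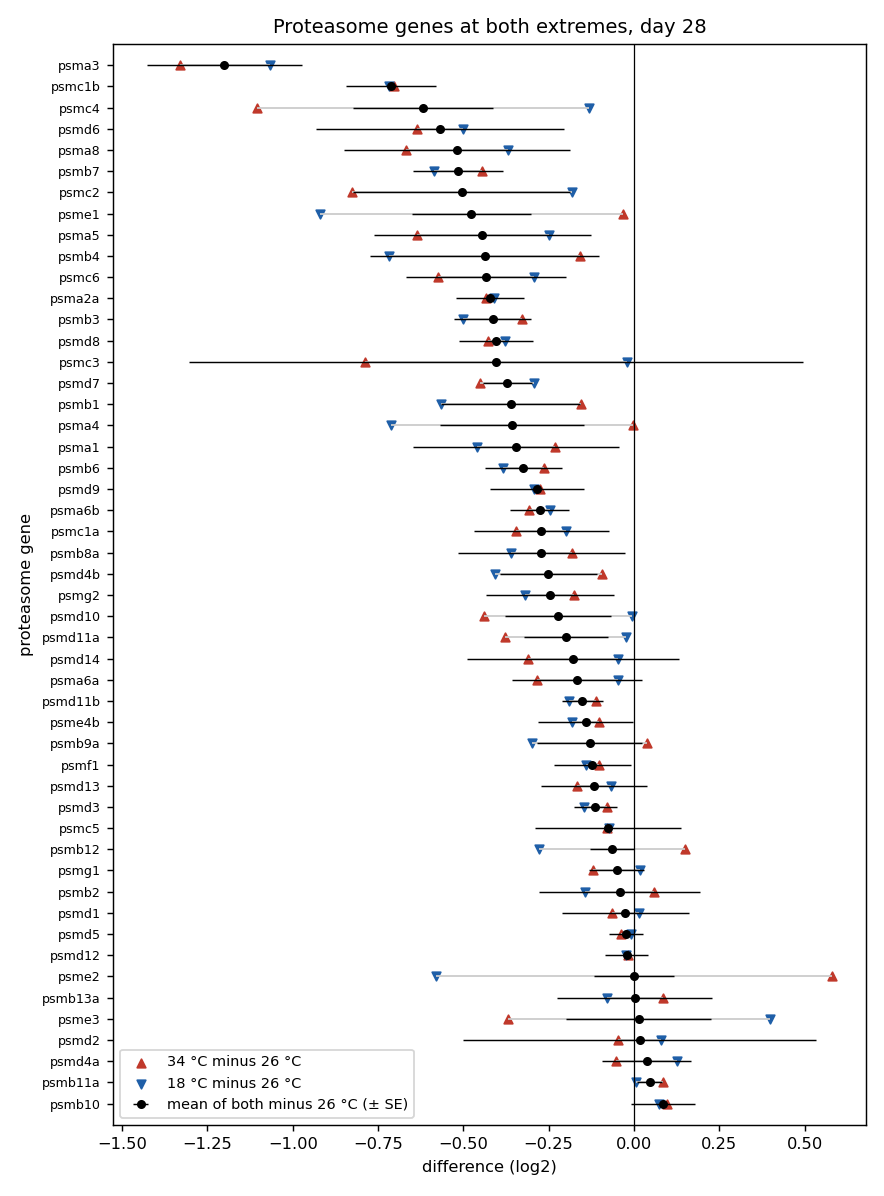
Differences from 26 °C on the log2 scale for the 50 measured proteasome genes, one per row, at 34 °C (red triangles), at 18 °C (blue inverted triangles) and for the mean of both (black points, bars ± limma SE). In most rows all marks lie left of 0, from -1.20 for the mean of both in psma3, and 7 genes have a positive mean.

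Heat shock proteins and chaperonins had a smaller median. Of 51 measured genes, 36 were negative and 15 positive (median -0.11), and 6 lay below and 1 above without overlap, as did 2.83% and 1.94% of all features. The median was -0.12 for the 34 °C step and 0.00 for the 18 °C step. The list's median level was 0.11 and -0.01 at 26 °C, against 0.06 and -0.01 at 18 °C, so these groups overlapped. Over the alternatives the median for the mean of both extremes lay between -0.176 and -0.0246. It was nearest to 0 without the first 26 °C replicate, where 27 of the 51 genes were negative. The co-chaperone gene ptges3b had levels of -0.23 and -0.79 at 34 °C and 0.14 and 0.35 at 18 °C, against 0.37 and 0.47 at 26 °C. Here the 34 °C samples were far below and the 18 °C samples barely below 26 °C, and the difference was -0.55 ± 0.177, or -0.321 without the first-replicate array of 34 °C and 18 °C. The Hsp110-type gene hspa4a, with a difference of -0.67 ± 0.217, overlapped, since an 18 °C sample lay above a 26 °C sample, and was -0.413 without that same array. The hspb1 and cct4 genes described above belong to this list, with opposite signs. The major chaperone genes gave little separation: hspa8 had -0.35 ± 0.310, hspa5 -0.35 ± 0.468 and hsp90aa1.1 0.051 ± 0.114 with 1 of 2 probes opposite, and the signs of hspa5 and hsp90aa1.1 turned under some alternatives.

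Genes known for answering temperature in fish or other vertebrates followed no common pattern either. The chromatin protein gene hmgb1a had -0.67 ± 0.299. Its levels were 1.68 and 0.95 at 34 °C and -1.61 and -1.74 at 18 °C, against 0.86 and 0.12 at 26 °C. The 26 °C samples lay at or below 34 °C and far above 18 °C, so its value came from the 18 °C step of -2.17. The values were -0.35 ± 0.277 for cirbpa, 0.13 ± 0.308 for its paralogue cirbpb, -0.20 ± 0.080 for serpinh1b and -0.26 ± 0.184 for the stearoyl-CoA desaturase gene scd, in which all 4 extreme samples lay below 26 °C. The steps of hmgb1a, cirbpa, cirbpb and serpinh1b ran opposite ways at 34 °C and 18 °C. The signs of the means of these genes turned without some array or sample.

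Genes of the endoplasmic reticulum and its unfolded protein response were split, 25 negative and 22 positive of 47. The stress-response transcription factor gene xbp1 had levels of -0.42 and -0.71 at 34 °C and 0.21 and 0.14 at 18 °C, against 0.30 and 0.75 at 26 °C. All extreme samples lay below 26 °C, by a little at 18 °C and by far at 34 °C, and the difference was -0.72 ± 0.157, or -0.448 without the first-replicate array of 34 °C and 18 °C. For syvn1, the ubiquitin ligase of this pathway, the 34 °C step was -1.40 and the 18 °C step 0.06, so the mean of -0.67 ± 0.148 described 34 °C alone. With calr positive and these genes negative, the list had no common direction, and its median of -0.07 was 0.0036 without that array.

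Cytosolic ribosomal proteins had the largest positive median of the 29 lists, 0.474, but from 1 extreme. Of 76 measured genes, 67 were positive and 9 negative, and 22 were positive at an unadjusted p under 0.05, as were 0.83% of all features. The median was 1.02 for the 34 °C step and -0.07 for the 18 °C step, and 34 °C minus 18 °C was 1.01, with 5 genes passing that test as positive, as did 0.485% of all features. Median levels of the list were 0.52 and 0.90 at 34 °C and -0.40 and -0.24 at 18 °C, against -0.28 and -0.24 at 26 °C. The 34 °C samples were alone, and the 18 °C samples lay at or below the 26 °C samples. In rpl10, for example, the 34 °C step was 1.32 and the 18 °C step -0.007, and 34 °C minus 18 °C passed (1.33, limma adjusted p = 0.0414). Its mean of 0.66 was 0.254 without the first-replicate array of 34 °C and 18 °C. In 9 ribosomal protein genes the extremes lay above 26 °C without overlap and in 1 below, where 1.94% of all features lay above and 2.83% below. The median stayed between 0.351 and 0.572 in all alternatives run.

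Ribosome biogenesis genes, which make and assemble ribosomes, had the opposite sign to the ribosomal proteins themselves for the mean of both extremes. Their median was -0.12 for the 34 °C step and -0.03 for the 18 °C step. At 18 °C both lists were thus slightly negative (-0.07 for ribosomal proteins), and their signs were opposite only at 34 °C. Of 59 measured, 42 were negative and 17 positive (median -0.16), and 8 lay below and 4 above without overlap, as did 2.83% and 1.94% of all features. The pseudouridine synthase gene dkc1 had levels of -0.27 and -0.71 at 34 °C and -0.18 and 0.16 at 18 °C, against 0.66 and 0.92 at 26 °C. The extremes lay well below 26 °C in every sample, with a difference of -1.04 ± 0.177 and steps of -1.28 at 34 °C and -0.80 at 18 °C. The day 4 sample from 26 °C, at -0.58, lay with the extremes. The median stayed between -0.235 and -0.101 in all alternatives run.

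Translation factor genes were balanced, 27 positive and 28 negative of 55. The initiation factor helicase genes eif4a2 and eif4a1a had opposite signs, 0.44 ± 0.084 and -0.54 ± 0.154. The eif4a2 value came from 18 °C alone. Its levels were -0.48 and -0.23 at 34 °C and 0.54 and 0.58 at 18 °C, against -0.39 and -0.29 at 26 °C. The 34 °C samples lay around the 26 °C samples and the 18 °C samples far above, and 34 °C minus 18 °C was -0.91 (limma adjusted p = 0.0456). The gene for eif6, a factor that keeps ribosomal subunits apart, had -0.43 ± 0.084. Almost all of it came from 34 °C (-0.79, against -0.07 at 18 °C), and the groups overlapped. The cap-binding factor gene eif4e1c had -0.51 ± 0.129, with steps of -0.615 at 34 °C and -0.405 at 18 °C. The values were -0.127 for eif4e1c and -0.237 for eif4a1a without the second-replicate array of 34 °C and 26 °C.

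Cholesterol synthesis and uptake genes were mostly negative, mainly through 18 °C. Of 27 measured, 21 were negative and 6 positive (median -0.12), with 5 below and 0 above without overlap, against 2.83% and 1.94% of all features. The median was -0.06 for the 34 °C step and -0.51 for the 18 °C step. Median levels were 0.09 and 0.20 at 34 °C and -0.33 and -0.50 at 18 °C, against 0.12 and 0.13 at 26 °C. The 34 °C samples lay on either side of the 26 °C samples and the 18 °C samples far below. The low-density lipoprotein receptor gene ldlrb had -0.44 ± 0.075, with steps of -0.26 at 34 °C and -0.61 at 18 °C. For lss, which closes the sterol ring, the steps were -0.17 at 34 °C and -0.70 at 18 °C, and for insig1, the sterol-sensing brake on the pathway, -0.22 at 34 °C and -0.37 at 18 °C. The means were -0.0977 for ldlrb and -0.255 for lss without the second-replicate array of 34 °C and 26 °C. The list's median ranged between -0.544 and -0.0276 over the alternatives.

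Fatty acid and triglyceride synthesis held one-sided genes of both kinds. The elongase gene elovl6 had levels of 0.58 and 0.92 at 34 °C and -1.70 and -1.62 at 18 °C, against 0.65 and 0.76 at 26 °C. Only the 18 °C samples stood apart, so the mean of -1.16 ± 0.108 (limma adjusted p = 0.740) described 18 °C, and the groups overlapped. The desaturase gene fads2 had levels of 1.82 and 2.24 at 34 °C and -1.0 and -1.74 at 18 °C, against -0.61 and -0.62 at 26 °C. Its steps ran opposite ways, 2.65 at 34 °C and -0.75 at 18 °C, and 34 °C minus 18 °C passed (3.40, limma adjusted p = 0.0386). The acyl-CoA synthetase gene acsl5 had 0.27 ± 0.067, from a 34 °C step of 0.54 and an 18 °C step of 0.005. Its mean was 0.18 without the first-replicate array of 34 °C and 18 °C. The means were -0.705 for elovl6 and 0.583 for fads2 without the second-replicate array of 34 °C and 26 °C. Over the list, 23 of 37 genes were negative, and the median of -0.03 turned to 0.126 without it.

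**Figure D5:**
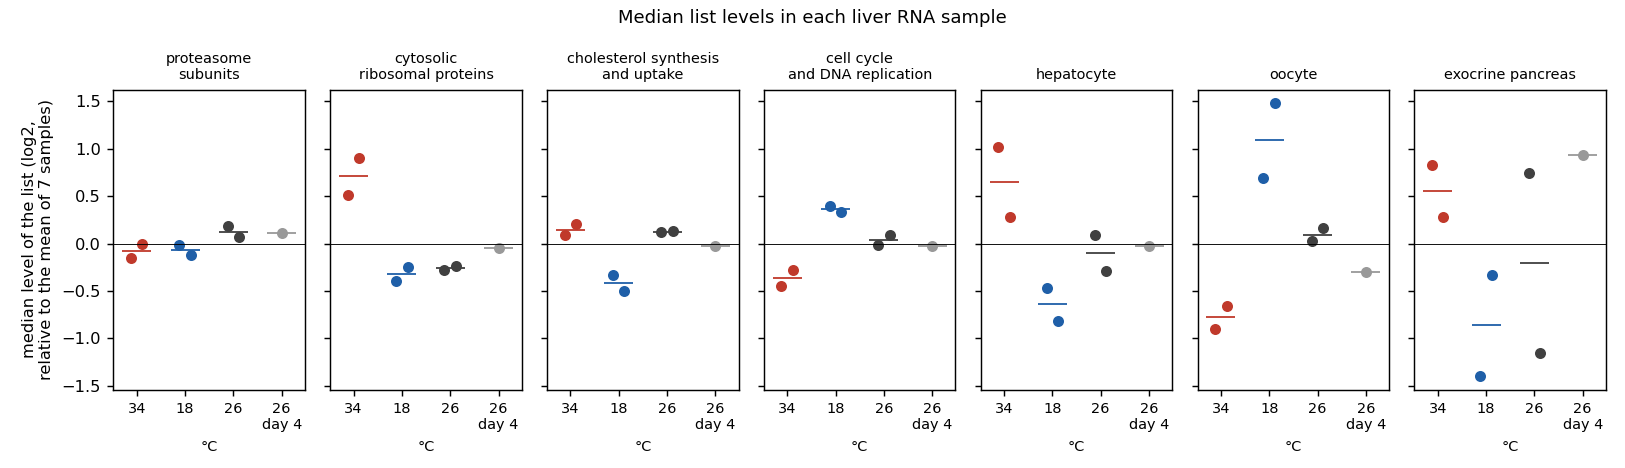
Each panel shows the median level of a gene list in every liver RNA sample, on the log2 scale relative to the mean of 7 samples, with points for samples and lines for group means. The proteasome panel has both extremes on the same side of 26 °C, whereas the oocyte panel runs in opposite directions at 34 °C and 18 °C, and the exocrine pancreas panel has the 26 °C replicates far apart, at 0.75 and -1.16.

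Stress and defence lists gave weak common departures. Of 49 antioxidant and glutathione genes, 30 were negative and 4 lay below without overlap, as did 2.83% of all features, with a median of -0.04 that was 0.0157 without the second-replicate array of 34 °C and 26 °C. The glutathione transferase gene gstm.1 had steps of -0.69 at 34 °C and -0.75 at 18 °C (mean -0.72 ± 0.190, but -0.182 without the first-replicate array of 34 °C and 18 °C). The superoxide dismutase gene sod1 had -0.12 at 34 °C and -1.20 at 18 °C and the glutaredoxin gene glrx5 -1.30 at 34 °C and -0.30 at 18 °C. Their means were -0.0657 for sod1 and -0.241 for glrx5 without the second-replicate array of 34 °C and 26 °C. Of 28 glucocorticoid and stress hormone response genes, 20 were positive (median 0.11, but -0.0159 without the second 26 °C replicate). The growth factor binding protein gene igfbp1a had the largest value, 1.38 ± 0.514. Its levels were 0.59 and -1.08 at 34 °C and 1.32 and 1.18 at 18 °C, against -0.55 and -1.20 at 26 °C. The 34 °C replicates lay far apart and one of them fell between the 26 °C samples, so the groups overlapped, and the value was 0.526 without the second-replicate array of 34 °C and 26 °C. The liver transcription factor gene cebpa had 0.31 ± 0.095 from a 34 °C step of 0.72 and an 18 °C step of -0.11, with 1 of its 2 probes opposite in sign, and 0.11 without the first-replicate array of 34 °C and 18 °C.

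Circadian clock and immediate early genes had 38 negative and 19 positive values of 57, with a median of -0.03 that turned to 0.0373 without the array of the second replicates of 34 °C and 26 °C. The clock output gene tefa had -0.22 ± 0.035, mainly from 18 °C (-0.37, against -0.06 at 34 °C). The clock gene per1b had -0.50 ± 0.123, also mainly from 18 °C (-0.80, against -0.19 at 34 °C). Of its 2 probes 1 was opposite in sign, and the gene gave 0.124 without that same array. Mitochondrial respiratory chain genes were near balance, 42 negative and 32 positive of 74 (median -0.03). The complex III gene uqcrq had 0.40 ± 0.088, but -0.20 without the array of the first replicates of 34 °C and 18 °C, and a cytochrome c gene, cycsb, had -0.62 ± 0.187, almost all at 34 °C.

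In other lists the steps ran in opposite directions. Complement and coagulation genes, plasma proteins made by hepatocytes, had a median of 0.61 for the 34 °C step and -0.42 for the 18 °C step, which left 0.10 for the mean of both, a sign that turned to -0.136 when arrays were scaled to a common spread. In serpinf2b, the plasmin inhibitor gene, the steps were 1.37 at 34 °C and -0.26 at 18 °C, for a mean of 0.55 ± 0.101 that was 0.0837 without the first-replicate array of 34 °C and 18 °C. Cell cycle and DNA replication genes had -0.42 at 34 °C and 0.30 at 18 °C, and the mean of both was -0.05, or 0.0438 with scaled arrays. The origin recognition gene orc3 had -0.94 at 34 °C and 0.31 at 18 °C, for a mean of -0.31 ± 0.047 that was 0.193 without that array.

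The yolk precursor gene vtg3, a vitellogenin that the liver of egg-laying females secretes, had the largest mean of the listed genes named here, 1.88 ± 0.548. Its levels were 1.76 and 3.32 at 34 °C and -0.90 and -0.35 at 18 °C, against -0.43 and -1.42 at 26 °C. Both 34 °C samples stood far above 26 °C, one 18 °C sample lay just above both 26 °C samples and the other between them. Of 11 vitellogenin and estrogen response genes, 10 were positive, with a median of 0.11. That median ran between 0.000161 and 0.636 when a sample or array was left out, and as few as 6 genes were positive under the alternatives.

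Markers of cells other than hepatocytes were followed because they could travel with a liver sample. Oocyte markers had the widest difference between extremes of these lists, with a median of -1.08 for the 34 °C step and 0.86 for the 18 °C step. Their median levels were -0.90 and -0.65 at 34 °C and 0.69 and 1.48 at 18 °C, against 0.02 and 0.17 at 26 °C. The 26 °C samples lay between the extremes, and for the mean of both, 21 of 43 genes were positive and 22 negative (median -0.02, but 0.496 with scaled arrays). Single oocyte genes still gave sizeable means from unequal steps, such as the meiotic regulator fbxo43 with 0.79 ± 0.192 (-0.34 at 34 °C and 1.93 at 18 °C) and the ribosomal RNA transcription factor gene gtf3ab with 0.70 ± 0.263. The germline gene piwil1 had -0.30 ± 0.063 from steps that ran opposite ways, -0.996 at 34 °C and 0.385 at 18 °C. Its 34 °C minus 18 °C value passed (-1.38, limma adjusted p = 0.0272).

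Hepatocyte markers ran the other way, with a median of 0.80 for the 34 °C step and -0.67 for the 18 °C step over 25 genes. Their median levels were 1.02 and 0.28 at 34 °C and -0.47 and -0.81 at 18 °C, against 0.09 and -0.29 at 26 °C. The mean of both extremes was 0.18, with 17 positive and 8 negative genes and none without overlap, and it was -0.204 with scaled arrays. Exocrine pancreas markers, from a gland that lies close to the liver, differed most between the 26 °C replicates, at 0.75 and -1.16. The extremes had 0.83 and 0.28 at 34 °C and -1.40 and -0.33 at 18 °C. With 28 genes the mean of both was 0.23, and without the second 26 °C replicate it was -0.82. The part of these markers in the gene values above was not tested.

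The day 4 sample from 26 °C was no part of the contrast that chose the genes. Its 2 arrays did enter the fit of the day 28 levels. Without those arrays 280 features had an unadjusted limma p under 0.05, against 1046 with them. Such a fall was not particular to them. Left out singly, the arrays without the day 4 sample gave 291, 723, 759, 976, 1033 and 1079 such features. The lowest of these was without the first-replicate array of 34 °C and 18 °C, and only that count came near 280. The day 4 sample was hybridised with the first 18 °C replicate and the second 34 °C replicate, and with no day 28 sample from 26 °C. The sample is thus tied directly by its arrays to the extremes alone, and the percentages below do not place it independently of them. Over all features it lay nearer to the extremes than to 26 °C of day 28 in 67.5%. Of the 24 named genes, 18 (75%) had it on the side of the extremes, and of the 1692 features without overlap 1288 did (76.1%). Among the 91 features with at least a 2-fold change it was 48 (52.7%).

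By list, the day 4 sample differed from the mean of the extremes in several groups. Its median proteasome level was 0.12, between the 26 °C samples of day 28, and it lay above the mean of the extremes in 36 of 50 genes, where over all features it lay above in 50.1%. For heat shock proteins and chaperonins it lay above in 38 of 51 genes. For ribosomal proteins, whose mean of both extremes was positive through 34 °C alone, it lay below that mean in 56 of 76. The median difference from that mean was -0.22. The day 4 median level of that list, -0.05, lay between the 34 °C samples (0.52 and 0.90) and the 18 °C samples (-0.40 and -0.24). Lying below the mean of the extremes there did not set the day 4 sample apart from both. It is a single sample, so no error can be given for these values.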

How the data were processed

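The values are log2 ratios of the authors' deposited table, 1 for each of 43603 probes on each array, and normalized before deposit. Only limma is named, in the submitters' processing notes. The sources used here give neither the background correction, the normalization method nor the log base, and base 2 was taken because limma writes it. Probe names came from the platform annotation, updated to the symbols of the GRCz12tu RefSeq table (23717 probes with 1 symbol, 0 with several, 19886 with none here), and the probes of a gene were averaged.

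First, each feature's 8 log2 ratios were fitted on the 7 RNA samples plus a dye effect by least squares (1 residual degree of freedom), which gave the sample levels. Second, limma (version 3.58.1 in R 4.3.3; lmFit, eBayes) was run on these levels with 4 groups (3 residual and 1.63 prior degrees of freedom). Tests were two-sided, with Benjamini-Hochberg adjustment across all 35434 features and a threshold of 0.05. They measure the spread between samples and ignore that samples share arrays. Both steps were tested on simulated data.

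Named genes followed a rule. Since fewer than 5 genes passed in a direction, it took the 12 with the smallest p whose groups were free of overlap and whose names were no clone or locus names. To these came at most 4 genes from each list described, and 8 genes known for responding to temperature. The lists (29 pathway and 12 marker lists, 1569 of 1908 genes measured) and this comparison were chosen with earlier results of these data known. The same holds for the genes known for responding to temperature. Alternatives covered the dye term, array scaling, probe averaging, the variance prior, the features and arrays used, the correlation of sample levels, a replicate block, and leaving out each sample or array. The first step has 1 residual degree of freedom, so without any 1 array it followed the remaining ratios exactly. Values without 1 array thus show how far a result depends on the set of arrays. They cannot show that the array left out was at fault.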

Additional observations from a re-analysis of the deposited data

Results flagged for a closer look

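In 7 of the 24 named genes, whose samples at 34 °C and 18 °C all lay on one side of 26 °C, the size of the departure differed between the extremes in limma's test of 34 °C minus 18 °C, which is the difference between the 34 °C and 18 °C steps. Among positive genes this was 0.681 for dock8, 1.153 for rpl27 and 0.935 for btf3. Among negative genes it was -0.517 for zpr1, -0.676 for mtg1, -0.605 for mettl9 and -0.393 for pin4. Each of the 7 stood farther from 26 °C at 34 °C than at 18 °C. The count of 348 features that passed this test over the whole table was 0 under some alternatives, given with the processing choices. The 24 genes were chosen by their small p-values from the same spread that this test uses, and among all 1692 features without overlap 11 passed it, so the number 7 is a description of the genes chosen and supports nothing further.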

How the results depend on the processing

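The count of 0 features for both extremes against 26 °C stayed 0 in all alternatives but 2: limma on the 8 arrays directly called 2 (slc12a7b at 0.427 and zpr1 at -0.455, adjusted p = 0.0479 each) and a trended variance prior called 7, of which vtg3 had a symbol that is no clone name. The 7 had an unadjusted limma p between 0.0156 and 0.723 in the main test. They included si:ch211-240l19.8, whose 18 °C replicates lay at -4.49 and 3.93. These calls are thus no evidence of a separation from 26 °C. At an unadjusted p under 0.05 the count ranged between 280 and 2671. The 348 features for 34 °C against 18 °C were 0 with scaled arrays or only the 6 day 28 arrays, 2994 on the arrays directly, 2079 and 1043 by generalized least squares with variance ratios of 0 and 0.5, 55 with the trended prior, 1331 among features with a ratio of at least 0.5, 226 with each probe on its own, and 0 to 246 when a sample or array was left out. The 0 features for 34 °C against 26 °C were 1372 on the arrays directly, 421 and 15 by generalized least squares, 33 with the trended prior, and 0 to 2 when a sample or array was left out. The 1 for 18 °C against 26 °C was 29 on the arrays directly, 3 with the trended prior, and 0 with scaled arrays, the 6 arrays, the filter, the replicate block, each probe on its own or any sample or array left out. The cause was not tested. Limma on the arrays directly takes arrays that share a sample as independent. Like generalized least squares with a ratio of 0, it allows for no variance between samples of a group. The counts from these settings thus do not rest on samples as replicates. The labels link replicates of the same number by that number alone, although some of them shared an array. Correlations of their deviations were -0.13 for 34 °C and 18 °C, 0.41 for 34 °C and 26 °C, and -0.15 for 18 °C and 26 °C. With the number as a replicate block, 0 features passed for the extremes and 237 for 34 °C against 18 °C.

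Of 1805 gene values under 27 alternatives, 21 reversed, in 13 of 67 genes, 4 of them among the 24 named. Scaled arrays gave -0.0966 for cirbpb and 0.416 for hspa5, and the arrays directly or generalized least squares with a ratio of 0 gave -0.0234 for hsp90aa1.1. With a sample or array left out, the values ranged -0.525 to 1.92 for rpl19, -0.995 to 0.447 for mettl9, -0.775 to 0.0305 for pin4, -0.775 to 0.0989 for rpia, -0.20 to 1.41 for uqcrq, -0.866 to 0.124 for per1b, -1.17 to 0.193 for orc3, -0.934 to 0.631 for cirbpa, -0.251 to 0.518 for cirbpb, -0.0425 to 0.144 for hsp90aa1.1, -1.13 to 0.517 for hspa5, -0.702 to 0.0919 for serpinh1b and -1.23 to 0.279 for hmgb1a. Among 18 lists, 52 of 486 medians moved by more than the replicate spread. Without channel intensities, dim probes could not be separated from probes with an even ratio.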
